A study of Mus musculus with 9 samples.

Results

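The genes described are 10 mouse genes of iron storage, iron uptake and export, iron sensing and ferroptosis, followed at the RNA level in cells kept under high oxygen. They were taken by name from a fixed list (Ftl1, Fth1, Tfrc, Slc11a2, Slc40a1, Aco1, Ireb2, Ncoa4, Acsl4 and Aifm2), and all 10 were found among the 56620 genes and assembled loci of the table. The cells were mouse pulmonary microvascular endothelial cells, which line the small vessels of the lung, obtained as a primary product from a company and cultured for 48 h. HO-rWNT5A cells had 85% O2 and 100 ng/ml recombinant WNT5A, a secreted WNT ligand. HO cells had 85% O2 alone, and RA cells had room air with 21% O2. Each group had 3 libraries of total RNA. Whether the 3 libraries of a group stand for separate cultures is not stated in the labels; the spread behind each p-value may then be technical.

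Iron inside a cell is held in ferritin, a shell built from heavy chains (Fth1), which oxidise iron, and light chains (Ftl1), which help it mineralise. Iron regulatory proteins made by Aco1 and Ireb2 bind a hairpin called the iron-responsive element (IRE) in certain mRNAs when iron is low. Bound near the start of an mRNA, as in ferritin and ferroportin (Slc40a1), they block translation, and bound in the 3′ untranslated region of the transferrin receptor (Tfrc), they protect the mRNA from decay. Much of this control therefore acts on protein synthesis, which RNA levels do not show. Ferroptosis is a form of cell death driven by iron and by peroxidation of membrane lipids. Hyperoxia raises the production of reactive oxygen species, which is why iron handling is often examined beside it.

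The hairpins are shown because their place in the mRNA marks which members are known for control of translation and which for control of stability. A search of the sense strand of all transcripts of the members looked for the loop CAGTGN, with a last base other than G, closed by 5 base pairs (GT pairs allowed), with a C placed 6 bases before the loop. A form with 1 unpaired base on the 3′ side of the stem was also allowed. Transcript sequences are those of GENCODE M21 on GRCm38 (mm10), written as DNA, and each stretch is 30 bases with the 6 loop bases in capitals. The matches in the 5′ untranslated regions were chr7:45459777-45459806 on the minus strand (Ftl1), chr19:9982733-9982762 on the plus strand (Fth1) and chr1:45925463-45925492 on the minus strand (Slc40a1).
Ftl1: tcttgcttcaaCAGTGTttgaacggaacag
Fth1: tcctgcttcaaCAGTGCttgaacggaaccc
Slc40a1: aacttcagctaCAGTGTtagctaagtttgg

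The 3′ untranslated region of Tfrc-201 held 4 matches on the plus strand, at chr16:32631220-32631249, chr16:32631599-32631628, chr16:32631664-32631693 and chr16:32631711-32631740. That of Slc11a2-205 held 1 match with an unpaired base, at chr15:100395151-100395180 on the minus strand.
Tfrc site 1: attatcggaagCAGTGCcttccataattat
Tfrc site 2: attatcgggagCAGTGTcttccataatgca
Tfrc site 3: tatatcggagaCAGTGAtctccatatgtta
Tfrc site 4: attatcgggaaCAGTGTttcccataatttt
Slc11a2: gccatcagagcCAGTGTgtttctatggttt

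By the same search, 0.239% of 47199 annotated mouse 5′ untranslated regions and 1.09% of 43873 annotated 3′ untranslated regions held a match. Among 5′ regions within 1.25 times the length of the region in question, the share was 0.153% for Ftl1, 0.2% for Fth1 and 0.269% for Slc40a1. Among 3′ regions of like length it was 2.57% for Tfrc and 2.61% for Slc11a2. Tfrc was the only gene with a 3′ region holding 4 matches. A further match with an unpaired base lay in Slc40a1-204, a transcript with no annotated coding part (chr1:45919012-45919041, minus strand), and is not counted among the elements shown. No transcript of Aco1, Ireb2, Ncoa4, Acsl4 or Aifm2 held these letters.

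The deposited values were transcript FPKM, fragment counts divided by transcript length and library size, so levels can be set beside each other between genes per unit of length. FPKM was summed per gene and each library was scaled by its median gene. A rough depth read from the smallest values was 21500000 to 26500000 fragments per library. Small structural RNA took 28.15%, 26.14% and 23.53% of the FPKM in the HO-rWNT5A libraries, 27.45%, 26.6% and 20.16% in the HO libraries and 21.47%, 25.05% and 24.31% in the RA libraries, so HO replicate 3 had the smallest share. Of 12 endothelial markers, 9 had a mean below 1 FPKM, among them Pecam1 (0.0932 FPKM), Cdh5 (0.0544 FPKM) and Vwf (0.0442 FPKM). Flt1 stood at 38.0 FPKM and Emcn at 10.1 FPKM. Of 9 pericyte and smooth muscle markers, 7 had a mean of at least 5 FPKM, led by Acta2 at 1580 FPKM. The other 2, Myh11 (0.237 FPKM) and Rgs5 (0.759 FPKM), were below 1 FPKM. The labelled cell type therefore did not show most of its defining markers. Among the tested markers of all lists, Notch3 of the pericyte list alone was called, higher in HO (8.08 FPKM) than in RA (4.77 FPKM; limma adjusted p = 0.0351). Of 8 epithelial markers, 4 had a mean of at least 5 FPKM, led by Krt18 (54.8 FPKM), Cldn4 (42.8 FPKM) and Krt8 (31.3 FPKM). Epcam (1.89 FPKM) and Cdh1 (3.79 FPKM) were lower, Nkx2-1 stood at 0.00156 FPKM and Sftpc at 0 in all 9 libraries. The sum of the 8 was 129 to 148 FPKM in HO-rWNT5A, 130 to 167 FPKM in HO and 128 to 153 FPKM in RA. The sum of 7 fibroblast markers was 191 to 263 FPKM in HO-rWNT5A, 214 to 263 FPKM in HO and 264 to 282 FPKM in RA. Col1a1 (184 FPKM) made up most of it. Of the 7, 4 had a mean below 1 FPKM, among them Pdgfra (0.666 FPKM) and Dcn (0.399 FPKM). The part of these marker differences in the results below was not tested. The erythroid markers Hbb-bs, Hbb-bt and Hba-a1 were listed at 0 in all 9 libraries, and the summed level of 6 erythroid markers was at most 0.109 FPKM. Macrophage markers, of a cell rich in iron genes, summed to 4.03 to 9.18 FPKM in HO-rWNT5A, 4.21 to 11.0 FPKM in HO and 5.49 to 6.76 FPKM in RA, with 0 of 8 at a mean of 5 FPKM or more.

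None of the 10 iron and ferroptosis genes passed the test in any of the 3 comparisons, by limma on log2(FPKM + 1) over the 13832 genes whose mean reached 1 FPKM, at a Benjamini-Hochberg adjusted p of 0.05. For HO against RA, 0 of 10 were called, beside 1.97% of all genes tested, and 0 of 10 had an unadjusted p under 0.05, beside 18.2% of all genes. For HO-rWNT5A against HO, 0 of 10 were called, beside 0.00723% of all genes, and 0 of 10 had an unadjusted p under 0.05, beside 9.2% of all genes. For HO-rWNT5A against RA, 0 of 10 were called, beside 4.25% of all genes, and 2 of 10, Slc40a1 and Acsl4, had an unadjusted p under 0.05, beside 20.9% of all genes, so that count is near the background. All 10 members passed the filter on low values, so these counts cover the whole list. In bulk RNA, fewer cells with a transcript and less of it per cell cannot be told apart.

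The 95% intervals of the members' folds ran between 0.783 and 1.32 for HO over RA, between 0.77 and 1.16 for HO-rWNT5A over HO and between 0.774 and 1.21 for HO-rWNT5A over RA, so none reached a 1.5-fold change in either direction. The median log2 fold change of the 10 members was 0.04 for HO against RA, -0.09 for HO-rWNT5A against HO and -0.02 for HO-rWNT5A against RA, with -0.004, 0.002 and -0.003 over all genes tested. In HO against RA, 7 members had a positive and 3 a negative difference. In HO-rWNT5A against HO, 2 were positive and 8 negative. The HO libraries take part in both of these comparisons, with opposite sign. Standard errors of the log2 fold changes were 0.065 to 0.125.

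**Figure D1:**
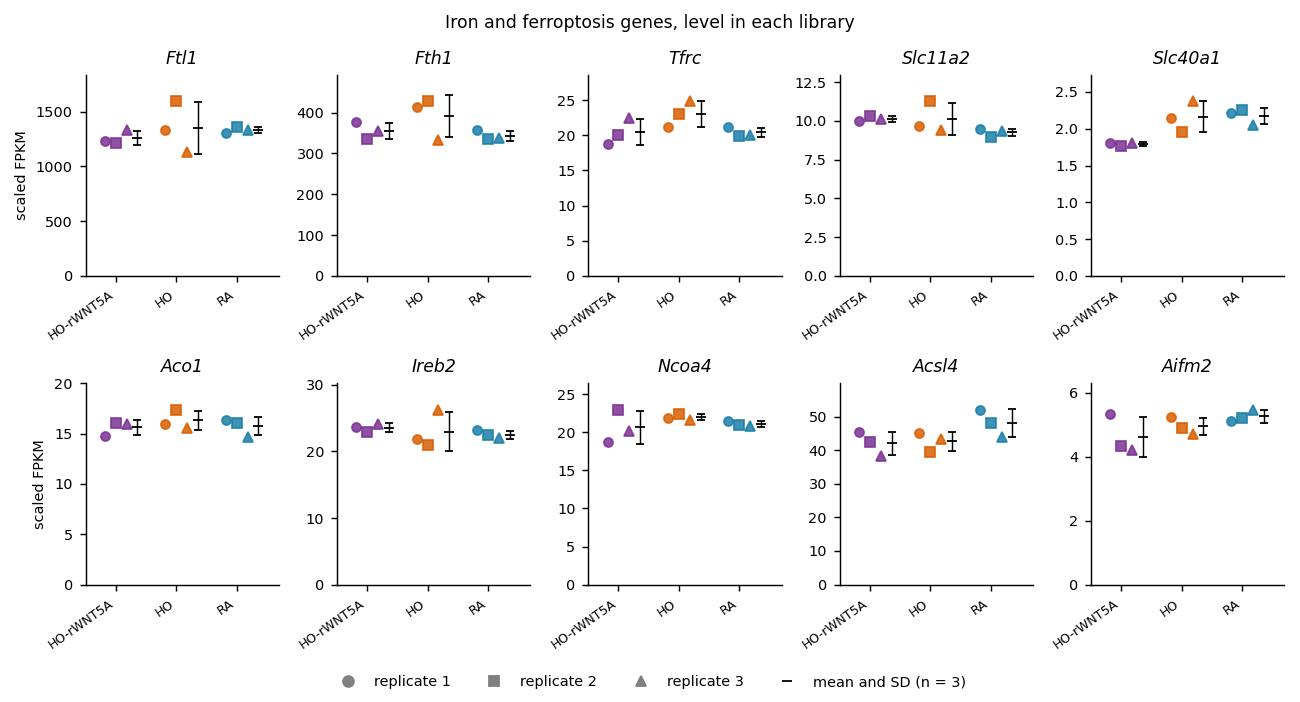
Scaled FPKM (vertical axes, from 0) of the 10 members in each library of HO-rWNT5A, HO and RA, with the mean and SD of 3 libraries to the right of each group. Ftl1, Fth1, Slc11a2 and Ireb2 spread more widely over the HO libraries than over the RA libraries, and the HO-rWNT5A libraries of Slc40a1 lie below all others.

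**Figure D2:**
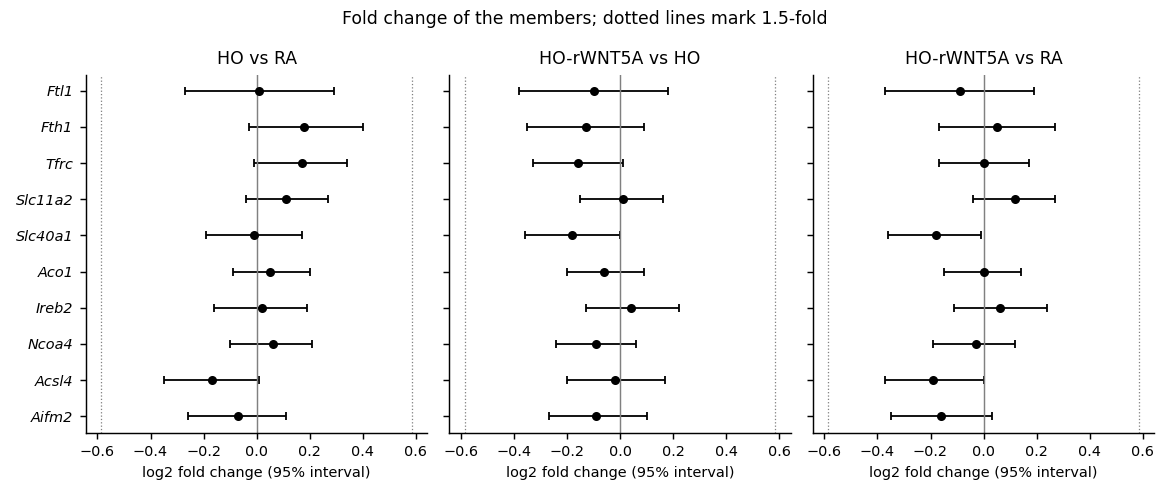
Log2 fold change of each member (points, horizontal axes) with its 95% interval from limma in the 3 comparisons, and dotted lines at 1.5-fold. Every interval lies inside the dotted lines; those of Slc40a1 and Acsl4 in HO-rWNT5A against RA end at or just below 0.

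The ferritin chains were by far the most abundant members. Ftl1, on chromosome 7 (45457944 to 45459884, minus strand), had a higher mean level per length than 99.9% of the genes tested. Its level was 1230, 1210 and 1330 FPKM in the HO-rWNT5A libraries, 1330, 1600 and 1130 FPKM in the HO libraries and 1310, 1360 and 1330 FPKM in the RA libraries. The HO libraries held both the highest and the lowest value, around those of RA, with a coefficient of variation of 17.3% in HO and 1.8% in RA. The log2 fold change was 0.01 ± 0.125 (SE) for HO against RA (limma adjusted p = 0.974) and -0.10 ± 0.125 for HO-rWNT5A against HO (adjusted p = 0.845). The sign of the small HO difference turned when FPKM was used as deposited (-0.052), at equal totals (-0.023) and when libraries were scaled to their protein-coding FPKM (-0.007), so no direction can be given for it.

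Fth1, on chromosome 19 (9980598 to 9985098, plus strand), had the largest positive difference of the list in HO against RA, though it did not pass the test. It stood at 376, 336 and 354 FPKM in HO-rWNT5A, 413, 429 and 332 FPKM in HO and 357, 335 and 337 FPKM in RA. HO replicates 1 and 2 lay above every other library and HO replicate 3 below every other library. The log2 fold change for HO against RA was 0.18 ± 0.098 (limma adjusted p = 0.359, 95% interval of the fold 0.976 to 1.32). Without HO replicate 3 it was 0.30 with a limma adjusted p of 0.0384, the only member value past the threshold under any alternative. Calls rose over all genes in that fit: 705 of the 13832 genes tested passed, against 272 with all libraries. HO replicate 3 was also the library with the least small structural RNA (20.16%), and the part of that difference in the Fth1 level was not tested. For HO-rWNT5A against HO the log2 fold change was -0.13 ± 0.098 (adjusted p = 0.711), and for HO-rWNT5A against RA it was 0.05 ± 0.098 (adjusted p = 0.809).

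The higher Fth1 values of HO replicates 1 and 2 lay in transcripts annotated as retaining an intron. Those transcripts summed to 256, 193 and 236 FPKM in HO-rWNT5A, 293, 310 and 177 FPKM in HO and 184, 195 and 191 FPKM in RA. The transcripts that hold the hairpin shown above summed to 187, 211 and 178 FPKM in HO-rWNT5A, 188, 186 and 213 FPKM in HO and 223, 201 and 201 FPKM in RA, and 1 transcript, Fth1-208, belongs to both sums. HO replicates 1 and 2 were therefore high in the retained-intron sum and not in the hairpin sum, and HO replicate 3 was the reverse. The retained-intron transcript Fth1-202 took 45.1%, 31.5% and 44.5% of the gene's FPKM in HO-rWNT5A, 45.8%, 52.1% and 30.5% in HO and 31.4%, 34.1% and 33.4% in RA. Its annotation starts at position 9982747, inside the hairpin stretch at chr19:9982733-9982762, so the search could not find a whole hairpin in it. Whether RNA counted as Fth1-202 lacks the hairpin was not tested. The coding transcript Fth1-201 took 31.6%, 42.3% and 29.8% in HO-rWNT5A, 25.2%, 26.6% and 44.7% in HO and 48.1%, 41.4% and 43.1% in RA. These transcripts share most of their bases, so the split is an estimate made by the authors' tool, and it is given as a description with no test. The pattern was not shared by Ftl1. Its retained-intron transcripts summed to 55.5, 53.5 and 64.5 FPKM in HO-rWNT5A, 37.3, 44.2 and 41.2 FPKM in HO and 45.4, 57.6 and 39.1 FPKM in RA.

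Reads of both ferritin genes can also fall on near-identical copies. Ftl1-ps1 averaged 86.1 ± 9.02 FPKM (SD over 9 libraries), or 6.05% to 6.9% of the Ftl1 level, and Ftl2-ps averaged 31.6 ± 3.62 FPKM, or 2.3% to 2.57%. Fth-ps2 averaged 1.28 ± 0.385 FPKM, 0.12% to 0.5% of the Fth1 level. No copy passed the test in a comparison. The levels of Ftl1 and Fth1 are uncertain to the extent that the counting divided reads between them and their copies.

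Tfrc, which takes transferrin-bound iron into the cell (chromosome 16, 32608920 to 32632794, plus strand), had 18.8, 20.1 and 22.5 FPKM in HO-rWNT5A, 21.2, 23.0 and 24.9 FPKM in HO and 21.2, 19.9 and 20.1 FPKM in RA. The lowest HO library equalled the highest RA library to 3 digits, and the HO-rWNT5A libraries spanned the RA libraries. HO against RA gave a log2 fold change of 0.17 ± 0.077 (limma adjusted p = 0.287, 95% interval of the fold 0.996 to 1.26), the smallest adjusted p of the list in that comparison. It was -0.16 ± 0.077 for HO-rWNT5A against HO (adjusted p = 0.557). Tfrc-201, the transcript with the 4 hairpins, made up most of the gene: transcripts with a hairpin took 92.0% to 97.3% of its FPKM over the 9 libraries.

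Slc11a2 encodes DMT1, which moves ferrous iron across the endosomal membrane and, in the gut, into the enterocyte. It lies on chromosome 15 (100387898 to 100425072, minus strand). Its level was 9.97, 10.3 and 10.1 FPKM in HO-rWNT5A, 9.65, 11.3 and 9.41 FPKM in HO and 9.46, 8.98 and 9.34 FPKM in RA. All HO-rWNT5A libraries were above all RA libraries, while HO and RA overlapped by a small margin. HO-rWNT5A against RA gave a log2 fold change of 0.12 ± 0.07 (limma adjusted p = 0.376, 95% interval of the fold 0.975 to 1.21), and that of HO against RA was 0.11 ± 0.07 (adjusted p = 0.432).

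Slc11a2 is made in forms with and without the hairpin. The hairpin form, Slc11a2-205, took 73.9%, 60.9% and 63.3% of the gene's FPKM in HO-rWNT5A, 74.9%, 65.7% and 68.8% in HO and 71.3%, 75.5% and 78.1% in RA. Slc11a2-201, with no match, took 18.8%, 33.7% and 31.3% in HO-rWNT5A, 20.5%, 30.4% and 28.2% in HO and 24.0%, 20.4% and 16.3% in RA. The mean hairpin share was 66.1% ± 6.9 in HO-rWNT5A, 69.8% ± 4.7 in HO and 75.0% ± 3.5 in RA (SD, n = 3 each), with overlap between every pair of groups. In FPKM the hairpin form stood at 6.69 ± 0.595 in HO-rWNT5A, 7.03 ± 0.495 in HO and 6.94 ± 0.312 in RA.

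**Figure D3:**
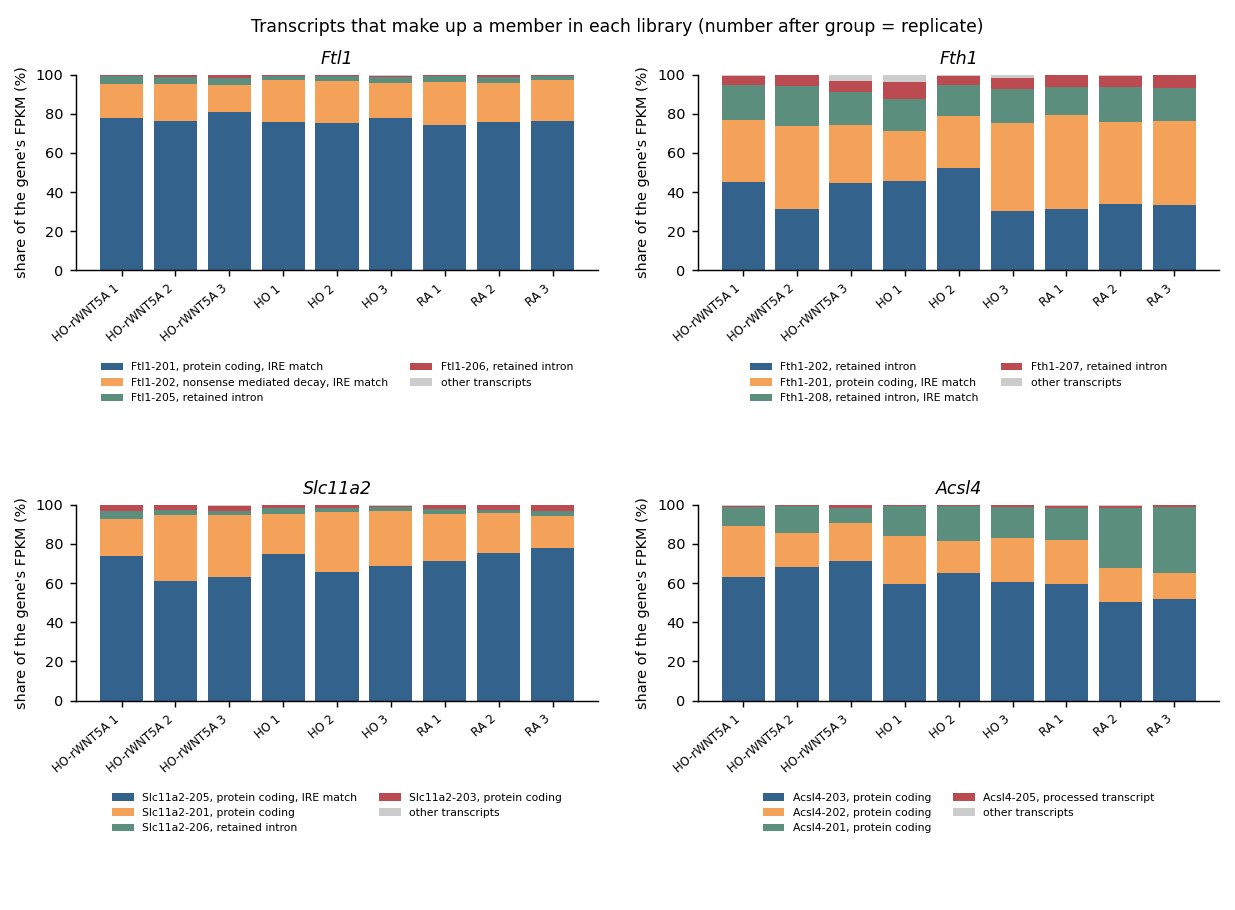
Share of a gene's FPKM taken by each of its 4 most abundant transcripts and by the rest (stacked bars, vertical axes 0 to 100%) for Ftl1, Fth1, Slc11a2 and Acsl4 in the 9 libraries. The Fth1-202 share reaches 52.1% in HO replicate 2 and is 30.5% in HO replicate 3, and the Acsl4-201 share is 30.6% and 33.8% in RA replicates 2 and 3 and at most 17.7% elsewhere.

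Slc40a1 encodes ferroportin, the only known iron exporter of mammalian cells. It was the least abundant member, with 1.81, 1.76 and 1.80 FPKM in HO-rWNT5A, 2.14, 1.96 and 2.38 FPKM in HO and 2.22, 2.25 and 2.05 FPKM in RA. Every HO-rWNT5A library was below every HO and every RA library, and HO and RA overlapped. Against HO the log2 fold change of HO-rWNT5A was -0.18 ± 0.080 (limma adjusted p = 0.541, 95% interval of the fold 0.782 to 1.00). Against RA it was -0.18 ± 0.080 (unadjusted p = 0.0435, limma adjusted p = 0.223, 95% interval of the fold 0.778 to 0.995), and HO against RA gave -0.01 ± 0.080 (adjusted p = 0.971). A change at such a low level is understated by the pseudocount of 1 FPKM. Some 128 to 203 fragments per library stood behind it, by the rough depth. The difference from RA kept its sign in all 17 alternatives, with adjusted p between 0.145 and 0.44. Slc40a1 lies on chromosome 1 (45908068 to 45926523, minus strand).

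Groups that did not overlap were no more common among the members than among all genes. In HO against RA, 1 of 10 members had no overlap, beside 21.4% of all genes tested, and in HO-rWNT5A against HO it was again 1 of 10, beside 13% of all genes. In HO-rWNT5A against RA, 2 of 10 had no overlap, beside 32.8% of all genes. The members were Ncoa4, higher in HO than in RA, Slc40a1, lower in HO-rWNT5A than in HO and than in RA, and Slc11a2, higher in HO-rWNT5A than in RA.

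Neither gene of iron sensing passed the test in a comparison. Aco1, a cytosolic aconitase that binds the hairpins once it loses its iron-sulfur cluster, had 14.8, 16.1 and 16.0 FPKM in HO-rWNT5A, 16.0, 17.4 and 15.6 FPKM in HO and 16.4, 16.1 and 14.7 FPKM in RA. It was the least variable member over the 9 libraries, with a coefficient of variation of 5.2%, and its log2 fold change for HO against RA was 0.05 ± 0.065 (limma adjusted p = 0.711). Ireb2, whose protein is removed when iron is plentiful, had 23.7, 22.9 and 24.2 FPKM in HO-rWNT5A, 21.8, 20.9 and 26.3 FPKM in HO and 23.2, 22.4 and 22.0 FPKM in RA. The HO libraries of Ireb2 held both its highest and its lowest value. Its log2 fold change was 0.02 ± 0.078 for HO against RA (adjusted p = 0.927) and 0.04 ± 0.078 for HO-rWNT5A against HO (adjusted p = 0.891). Aco1 lies on chromosome 4 (40143081 to 40198338) and Ireb2 on chromosome 9 (54863789 to 54912530), both on the plus strand.

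Ncoa4, the receptor that carries ferritin to the lysosome for breakdown, had 18.8, 23.0 and 20.2 FPKM in HO-rWNT5A, 21.9, 22.4 and 21.6 FPKM in HO and 21.5, 21.0 and 20.8 FPKM in RA. The HO values lay just above the RA values, with 21.6 FPKM as the lowest in HO and 21.5 FPKM as the highest in RA. The log2 fold change was 0.06 ± 0.069 for HO against RA (limma adjusted p = 0.706), with a spread estimated over all 3 groups, and the HO-rWNT5A libraries ran from 18.8 to 23.0 FPKM. With FPKM as deposited the difference was -0.002. Ncoa4 lies on chromosome 14 (32159865 to 32179855, plus strand).

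Acsl4 attaches polyunsaturated fatty acids to coenzyme A, which supplies the lipids that are oxidised in ferroptosis. It stood at 45.3, 42.5 and 38.4 FPKM in HO-rWNT5A, 45.0, 39.4 and 43.4 FPKM in HO and 52.1, 48.1 and 43.9 FPKM in RA. RA had the highest libraries, and RA replicate 3 lay within the range of both hyperoxic groups. The log2 fold change was -0.17 ± 0.082 for HO against RA (limma adjusted p = 0.311), -0.02 ± 0.082 for HO-rWNT5A against HO (adjusted p = 0.968) and -0.19 ± 0.082 for HO-rWNT5A against RA (unadjusted p = 0.047, limma adjusted p = 0.232). Both differences from RA kept their sign in all 18 alternatives, and none passed the threshold. Acsl4 lies on chromosome X (142317993 to 142390535, minus strand).

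The make-up of Acsl4 by transcript also varied between libraries. Acsl4-201, a coding transcript, took 9.6%, 13.5% and 7.8% of the gene's FPKM in HO-rWNT5A, 15.0%, 17.7% and 15.9% in HO and 16.4%, 30.6% and 33.8% in RA. RA replicate 1 lay among the HO libraries and the other 2 RA libraries far above them, while all HO-rWNT5A libraries were below all HO libraries. Such a gap was not particular to Acsl4-201. Ftl1-205 took 3.9%, 3.6% and 3.5% in HO-rWNT5A and 2.4%, 2.3% and 2.8% in HO. Slc11a2-203 took 3.3%, 2.8% and 2.8% in HO-rWNT5A and 1.7%, 1.5% and 0.8% in HO. How often shares of all transcripts part in this way was not counted. Acsl4-203, also coding, took 63.0%, 68.3% and 71.2% in HO-rWNT5A, 59.6%, 65.2% and 60.4% in HO and 59.7%, 50.2% and 52.0% in RA. As with Fth1, these shares are estimates by the authors' tool and were given no test.

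Aifm2 encodes FSP1, which keeps coenzyme Q reduced and so protects membranes from lipid peroxidation without glutathione. Its level was 5.33, 4.33 and 4.19 FPKM in HO-rWNT5A, 5.23, 4.90 and 4.71 FPKM in HO and 5.10, 5.19 and 5.47 FPKM in RA. HO-rWNT5A replicate 1 was among the highest libraries and the other 2 HO-rWNT5A libraries were the lowest of all. Its log2 fold change was -0.07 ± 0.085 for HO against RA (limma adjusted p = 0.69), -0.09 ± 0.085 for HO-rWNT5A against HO (adjusted p = 0.792) and -0.16 ± 0.085 for HO-rWNT5A against RA (adjusted p = 0.317). Aifm2 lies on chromosome 10 (61715263 to 61739260, plus strand).

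Ratios between members within a library do not depend on how libraries are scaled. Uptake over storage, the log2 ratio of Tfrc to the sum of Ftl1 and Fth1, was -6.41, -6.27 and -6.22 in HO-rWNT5A, -6.37, -6.46 and -5.88 in HO and -6.30, -6.41 and -6.38 in RA. HO replicate 3 stood above the other libraries and the rest of HO lay close to RA. The difference was 0.13 for HO minus RA (exact permutation p = 0.8, two-sided) and -0.06 for HO-rWNT5A minus HO (exact permutation p = 0.9). Without HO replicate 3 they were -0.052 and 0.11, so their sign rested on that library.

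The log2 ratio of light to heavy ferritin chain, Ftl1 to Fth1, averaged 1.82 ± 0.106 in HO-rWNT5A, 1.79 ± 0.105 in HO and 1.96 ± 0.073 in RA (SD, n = 3 each). The difference was -0.17 for HO minus RA (exact permutation p = 0.2) and -0.14 for HO-rWNT5A minus RA (exact permutation p = 0.2), in both cases with overlap. With the most abundant transcript of each gene alone, which for Fth1 is the retained-intron Fth1-202, the differences were -0.50 and -0.36 (exact permutation p = 0.2 for each). The log2 ratio of Ireb2 to Aco1 averaged 0.59 ± 0.087 in HO-rWNT5A, 0.48 ± 0.246 in HO and 0.52 ± 0.055 in RA, with exact permutation p of 0.8 for HO against RA and 0.6 for HO-rWNT5A against HO. Over the 9 ratio tests the Benjamini-Hochberg adjusted values were 0.6 to 0.9, and 3 libraries against 3 cannot give an exact permutation p below 0.1.

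**Figure D4:**
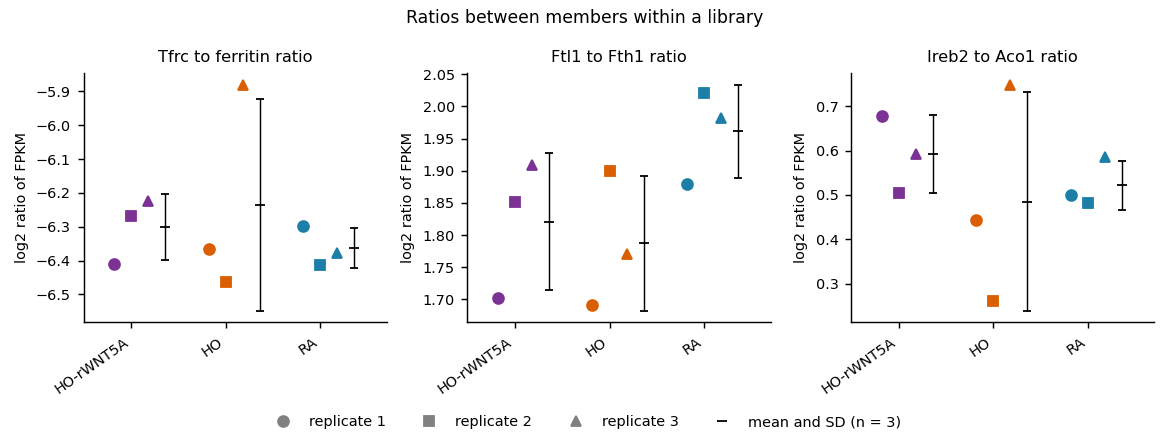
Log2 ratio of FPKM between members (vertical axes) in each library of HO-rWNT5A, HO and RA for Tfrc to ferritin, Ftl1 to Fth1 and Ireb2 to Aco1, with mean and SD. HO replicate 3 stands apart in the ratio of Tfrc to ferritin (-5.88) and is the highest library in that of Ireb2 to Aco1 (0.75).

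Among 143 further genes of iron handling and ferroptosis, grouped by 9 roles, 119 were tested. For HO against RA, 1 rose and 2 fell (2.52% of those tested, beside 1.97% of all genes), and 26 (21.8%) had an unadjusted p under 0.05, beside 18.2% of all genes. Atf3, a stress transcription factor often used as a ferroptosis marker, rose: it stood at 4.91, 7.75 and 5.52 FPKM in HO and 2.81, 2.85 and 2.84 FPKM in RA (log2 fold change 0.86 ± 0.146, limma adjusted p = 0.0216), with no overlap. Chac1, in the same role of ferroptosis markers and modulators, went the other way without passing the test (-0.64 ± 0.15, limma adjusted p = 0.0602). The median log2 fold change of the 12 genes tested in that role was -0.12. Cp, the ceruloplasmin gene, whose product oxidises exported iron, fell, with 21.0, 18.1 and 23.9 FPKM in HO and 29.5, 30.2 and 26.1 FPKM in RA (log2 fold change -0.44 ± 0.094, limma adjusted p = 0.0484). Acsl3, which activates monounsaturated fatty acids and is counted among the protective enzymes of ferroptosis, fell, with 4.37, 4.50 and 4.55 FPKM in HO and 5.55, 5.79 and 6.53 FPKM in RA (log2 fold change -0.34 ± 0.075, limma adjusted p = 0.0491). Cp and Acsl3 sat at the edge of the threshold and each passed it in 6 of 18 alternatives. Leaving out RA replicate 1, 2 or 3 left 0 of the 119 genes past the threshold, Atf3 included (limma adjusted p 0.0775 to 0.0947), and leaving out HO replicate 2 left 1. Calls over all 13832 genes also moved, from 272 with all libraries to between 2 and 705 with a library left out. The losses are therefore not particular to these genes.

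For HO-rWNT5A against HO, 0 of the 119 were called by limma and 14 (11.8%) had an unadjusted p under 0.05, beside 9.2% of all genes. For HO-rWNT5A against RA, 4 rose and 1 fell (4.2% of those tested, beside 4.25% of all genes), and 27 (22.7%) had an unadjusted p under 0.05, beside 20.9% of all genes. Ptgs2, the inducible cyclooxygenase, whose mRNA is a common ferroptosis marker and also an inflammatory gene, rose: it had 33.2, 32.3 and 43.0 FPKM in HO-rWNT5A and 18.6, 19.9 and 20.2 FPKM in RA (log2 fold change 0.84 ± 0.128, limma adjusted p = 0.00877). Its HO libraries, at 23.1, 32.0 and 30.0 FPKM, were above RA but did not pass the test (0.50 ± 0.128, limma adjusted p = 0.0783). Chac1, of the same role as Ptgs2, was lower in HO-rWNT5A than in RA without passing the test (-0.57 ± 0.15, limma adjusted p = 0.0602). The median of that role in HO-rWNT5A against RA was -0.08. Sat1, a polyamine acetyltransferase, rose, with 66.7, 65.0 and 67.5 FPKM in HO-rWNT5A and 54.9, 54.2 and 52.3 FPKM in RA (log2 fold change 0.30 ± 0.047, limma adjusted p = 0.00982). Its HO libraries stood between them, at 59.0, 58.7 and 58.7 FPKM (0.13 ± 0.047 against RA, limma adjusted p = 0.192).

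Atf3 (0.71 ± 0.146, limma adjusted p = 0.0267) and Zfp36, an RNA-binding protein that promotes mRNA decay (0.35 ± 0.076, limma adjusted p = 0.0345), also rose in HO-rWNT5A against RA. Acsl1, a fatty acid CoA ligase, fell, with 3.47, 4.45 and 4.71 FPKM in HO-rWNT5A and 7.02, 6.63 and 6.11 FPKM in RA (log2 fold change -0.55 ± 0.096, limma adjusted p = 0.0155). HO-rWNT5A and RA differed in both oxygen and WNT5A. In HO, Acsl1 had 4.85, 5.37 and 5.05 FPKM (-0.32 ± 0.096 against RA, limma adjusted p = 0.122), and Zfp36 gave 0.23 ± 0.076 against RA (0.15). For HO-rWNT5A against HO, the genes called here and Ptgs2 and Sat1 had limma adjusted p of 0.499 to 0.795. The Ptgs2 call held with each of the 6 libraries left out in turn and was lost only with no filter on low values. The Zfp36 call was lost with any of the 6 left out, and the Atf3 call with any but HO-rWNT5A replicate 1 (limma adjusted p 0.0823 to 0.0934). The Acsl1 call was lost without RA replicate 1 (limma adjusted p = 0.072) or RA replicate 2 (0.0591), and the Sat1 call without RA replicate 3 (0.0506). At equal totals the calls of Sat1 (limma adjusted p = 0.121) and Zfp36 (0.102) were lost. With no filter those of Acsl1 (limma adjusted p = 0.0625), Zfp36 (0.0927) and Atf3 (0.11) were lost, and with FPKM as deposited that of Zfp36 (0.0531). Leaving out HO-rWNT5A replicate 2 or 3 left 3 of the 119 past the threshold, and leaving out RA replicate 1, 2 or 3 left 2. Over all 13832 genes, 123 to 200 passed with a library left out, against 588 with all libraries.

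Of the roles, ferritin and iron chaperones (4 tested), iron uptake and reduction (12), iron-sulfur cluster assembly (23), heme synthesis, transport and breakdown (17) and ferroptosis defence (19) had no call in any comparison by limma and 0 to 5 members each with an unadjusted p under 0.05, a cut that 18.2% of all genes passed in HO against RA, 9.2% in HO-rWNT5A against HO and 20.9% in HO-rWNT5A against RA. Gpx4, the peroxidase that reduces lipid peroxides in membranes, stood at 199, 191 and 180 FPKM in HO-rWNT5A, 235, 219 and 179 FPKM in HO and 206, 211 and 211 FPKM in RA. As for Fth1, HO replicates 1 and 2 were the highest libraries and HO replicate 3 the lowest. Hmox1, which frees iron from heme, had 25.0, 26.8 and 32.4 FPKM in HO-rWNT5A, 26.5, 33.1 and 27.4 FPKM in HO and 25.5, 27.8 and 26.5 FPKM in RA (log2 fold change 0.11 ± 0.103 for HO against RA, limma adjusted p = 0.602). The iron chaperone Pcbp2 averaged 140 ± 5.54 FPKM in HO-rWNT5A, 147 ± 10.3 FPKM in HO and 140 ± 4.87 FPKM in RA. Slc3a2, the heavy chain of the cystine transporter, averaged 54.5 ± 0.416 FPKM in HO-rWNT5A, 55.0 ± 1.16 FPKM in HO and 57.4 ± 1.34 FPKM in RA.

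**Figure D5:**
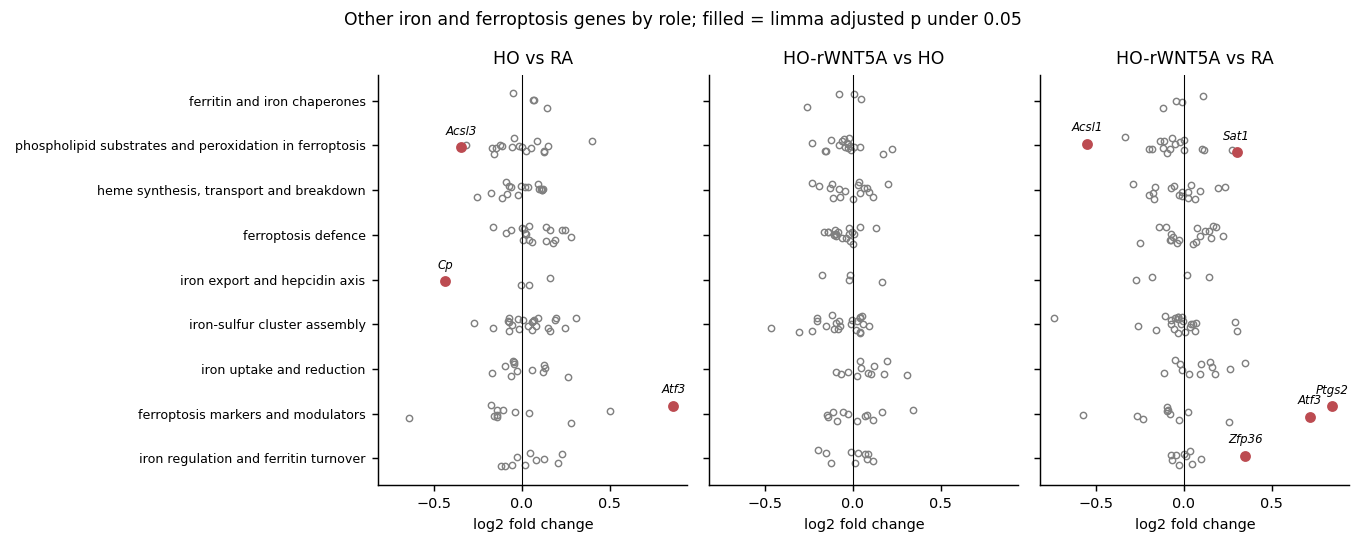
Log2 fold change (horizontal axes) of the 119 further iron and ferroptosis genes by role (rows) in the 3 comparisons. Filled points passed the limma test: Atf3, Cp and Acsl3 in HO against RA, none in HO-rWNT5A against HO, and Ptgs2, Atf3, Zfp36, Sat1 and Acsl1 in HO-rWNT5A against RA.

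The genes with the pattern most like that of Fth1 and of Tfrc over the 9 libraries were sought among 7595 named protein-coding genes whose mean reached 5 FPKM, by the root mean square difference of centred log2 levels. For Fth1 they were Mtch1 (0.028), Pfn1 (0.031) and Emc6 (0.032), with a median of 0.153 over all genes compared. Pfn1, for example, had 526, 479 and 488 FPKM in HO-rWNT5A, 552, 610 and 449 FPKM in HO and 494, 454 and 476 FPKM in RA. Its order of libraries, with HO replicates 1 and 2 highest and HO replicate 3 lowest, follows from the choice by likeness. The same holds for the small differences of the genes chosen. For Tfrc they were Foxo3 (0.05), Scaf8 (0.053) and Sec22c (0.053), with a median of 0.152. Foxo3 had 19.0, 20.1 and 22.0 FPKM in HO-rWNT5A, 20.4, 22.4 and 22.8 FPKM in HO and 20.2, 19.2 and 18.0 FPKM in RA.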

How the data were processed

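Total RNA of 9 libraries was sequenced as 150-base pairs. Per the labels' protocols, the authors trimmed reads with Skewer 0.2.2, aligned them with STAR 2.5.3a and assembled and merged transcripts with StringTie 1.3.1; gffcompare 0.9.9c set them against Ensembl. FastQC 0.11.2 and DESeq2 appear in the submitters' processing notes, as do 2 builds, mm10 and hg38, with no role. The deposited values are FPKM, normalized by the authors to length and mapped fragments, for 143043 transcripts, of which 142351 carry an Ensembl mouse identifier; 99.36% of these were found in GENCODE M21.

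FPKM was summed per gene. Libraries were scaled by the median ratio to the geometric mean over genes above 0 in every library and at a mean of 1 FPKM or more. Genes whose mean reached 1 FPKM entered limma 3.58.1 as log2(scaled FPKM + 1) (R 4.3.3; all 9 libraries, variance trend, two-sided, Benjamini-Hochberg, threshold 0.05). Ratios had exact permutation tests (Python 3.11.15, scipy 1.17.1). On simulated data for HO vs RA (13832 genes), the test called 74 of 100 genes shifted 1.5-fold, 96 of 100 shifted 2-fold and 7 that were not shifted. FPKM carries no counts, so no count test was run; the depth rests on a value shared by only 16 to 60 transcripts per library and is rough. Named genes were the 10 members, further listed genes that passed or led their role in level, ferritin copies of at least 1 FPKM, and the 3 genes most like Fth1 and Tfrc. Chac1 was named after the data were seen, as a gene of the role of Atf3 and Ptgs2 that went the other way. Of the genes that led a role, some are not described. Members, lists and tests were chosen with earlier results of these data known. Alternatives were pseudocounts of 0.1 and 5, a filter at 5 FPKM or none, FPKM as deposited, equal totals, quantile normalization, a fit of only the 2 groups compared, a replicate block, no variance trend, protein-coding genes alone and each library left out, and for ratios also the most abundant transcript of each gene alone and ferritin copies added; scaling to the protein-coding total was added after the data were seen.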

Additional observations from a re-analysis of the deposited data

How the results depend on the processing

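Of 354 member values under 12 alternative settings, 339 kept their sign, 15 turned and 0 passed the threshold. With a library left out, 1 of 180 passed (Fth1 in HO vs RA, without HO replicate 3, where 705 of 13832 genes passed) and 20 turned. The cause of each turn was not tested. Turned values with a library left out reached -0.12, for Ftl1 in HO vs RA (0.01 in the main fit). With FPKM as deposited, HO vs RA gave Ftl1 -0.052, Aco1 -0.006, Ireb2 -0.042 and Ncoa4 -0.002, and HO-rWNT5A vs RA gave Fth1 -0.017, Tfrc -0.062 and Ireb2 -0.003, where the median of all genes was -0.057 and -0.062. Equal totals gave Ftl1 -0.023 and Ireb2 -0.013 in HO vs RA and Tfrc -0.023 in HO-rWNT5A vs RA. Quantile normalization gave Slc40a1 0.03 in HO vs RA and Tfrc -0.002 in HO-rWNT5A vs RA. Scaling to the protein-coding total gave Ftl1 -0.007 in HO vs RA, Acsl4 0.014 in HO-rWNT5A vs HO and Aco1 0.009 in HO-rWNT5A vs RA.

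With a library left out, log2 fold changes in HO vs RA ran from -0.12 to 0.13 for Ftl1, from -0.056 to 0.039 for Slc40a1 and from -0.079 to 0.081 for Ireb2. In HO-rWNT5A vs HO they ran from -0.22 to 0.028 for Ftl1, -0.038 to 0.081 for Slc11a2, -0.018 to 0.14 for Ireb2 and -0.071 to 0.046 for Acsl4. In HO-rWNT5A vs RA they ran from -0.05 to 0.033 for Aco1, -0.11 to 0.03 for Ncoa4 and -0.063 to 0.059 for Tfrc. Ratio differences of Tfrc to ferritin ran from -0.052 to 0.24 in HO vs RA and -0.18 to 0.11 in HO-rWNT5A vs HO. Ftl1 to Fth1 ran from -0.014 to 0.093 in HO-rWNT5A vs HO, and Ireb2 to Aco1 from -0.17 to 0.074 in HO vs RA and -0.003 to 0.24 in HO-rWNT5A vs HO. With the most abundant transcript alone, the Ftl1 to Fth1 difference was -0.50 in HO vs RA, 0.14 in HO-rWNT5A vs HO and -0.36 in HO-rWNT5A vs RA. Called members ran from 0 to 1 in HO vs RA.

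The counts over all genes moved more than the members did. In HO vs RA, 272 genes were called, against 69 with no filter, 55 at equal totals and 58 with the 2 groups alone. The count was 192 with no variance trend, 436 with protein-coding genes alone and 2 to 705 with a library left out (705 without HO replicate 3). In HO-rWNT5A vs HO, 1 gene was called, against 0 with no filter or protein-coding genes alone, 3 with the 2 groups alone and 1 to 27 with a library left out. In HO-rWNT5A vs RA, 588 were called, against 222 with no filter, 256 at equal totals and 1316 with the 2 groups alone. The count there was 824 with FPKM as deposited, 789 with protein-coding genes alone and 123 to 200 with a library left out. Of the 119 further iron genes, HO vs RA called 0 with no filter, 1 with the 2 groups alone or no variance trend, 5 with protein-coding genes alone and 0 to 4 with a library left out. HO-rWNT5A vs RA called 1 with no filter, 10 with FPKM as deposited, 9 with the 2 groups alone, 8 with protein-coding genes alone and 2 to 5 with a library left out.

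Correlations of deviations were -0.117 to 0.279 for same-numbered libraries of different groups and -0.251 to 0.172 for differently numbered ones. The highest, 0.279, joined HO-rWNT5A replicate 1 and HO replicate 1. The ranges overlapped, and the numbers were not taken as pairs in the main fit. With the replicate number as a block, 115, 2 and 392 genes were called in HO vs RA, HO-rWNT5A vs HO and HO-rWNT5A vs RA, 0 members in each, and of the further iron genes 1 in HO vs RA and 4 in HO-rWNT5A vs RA. The block ended the calls of Cp (limma adjusted p = 0.084) and Acsl3 (0.088) in HO vs RA and of Zfp36 (0.0543) in HO-rWNT5A vs RA. The depth limits Slc40a1 most, the member with the lowest level.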
